A study of Mus musculus with 19 samples.

Results

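The Snrpn to Mkrn3 domain is a cluster of imprinted genes on mouse chromosome 7, described here by 3 histone marks in embryonic stem cells (ESCs) with and without DNMT1, the enzyme that copies CG methylation onto newly made DNA. Its members were the genes Snrpn, Ube3a, Ndn, Magel2 and Mkrn3 and the 1650 tiles of 2 kb that lie between 66.4 and 69.7 Mb of the NCBIM37 genome, out of 1327469 tiles in the table. A gene region ran from 2 kb upstream of the gene's start to its end and held 81 tiles for Snrpn, 41 for Ube3a, 3 for Ndn, 5 for Magel2 and 3 for Mkrn3. A single tile at exon 1 of Snrpn, from 67148001 to 67150000, was followed on its own and is called the Snrpn tile. The rule for members uses positions and no measured value, but the domain was picked with earlier results of these data known. In the GENCODE annotation of NCBIM37, Ube3a (ENSMUSG00000025326) lies on the plus strand from 66484122 to 66562097, and Snrpn (ENSMUSG00000000948) on the minus strand from 67127388 to 67285105. Ndn (ENSMUSG00000033585, plus strand, 69493163 to 69494814), Magel2 (ENSMUSG00000056972, plus strand, 69521865 to 69526526) and Mkrn3 (ENSMUSG00000070527, minus strand, 69562479 to 69565039) stand close together at the other end. The interval held 205 annotated genes, of which 166 were small nucleolar RNAs (snoRNAs), 23 microRNAs and 11 protein-coding.

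Chromatin immunoprecipitation followed by sequencing (ChIP-seq) was done for H3K27me3, H3K9me2 and H3K9me3 in control cells (genotype label Wildtype) and in DNMT1KO cells (label Dnmt1 KO) at days 4 and 8. Day 4 gave 1 library for each mark and genotype and day 8 gave 2, and a single input was made from control cells. The marks follow the sample titles and antibody labels. The protocol text attached to every sample names only the H3K9me2 antibody, and the catalogue number of the H3K27me3 antibody differs between day 8 samples. From the labels alone, which antibody lot or product gave each H3K27me3 library is therefore not certain. The paper's list of reagents holds only 1 H3K27me3 antibody, from Active Motif. Per the methods, the ESCs came from a single line that carries loxP sites in both Dnmt1 alleles, on a C57BL/6 background, and Cre was switched on with tamoxifen at 800 nM, whereas the strain label reads E14. All cells grew in serum with LIF. The labels number 2 samples per group at day 8 without saying whether they are separate cultures, so the tests measure only the spread between these samples.

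Imprinted genes are expressed from 1 parental copy, and in this domain Snrpn, Ndn, Magel2, Mkrn3 and Peg12 are read from the paternal copy, while Ube3a is read from the maternal copy in neurons. The choice is set by an imprinting control region at the promoter and exon 1 of Snrpn, whose maternal copy carries CG methylation. At such regions the zinc finger protein ZFP57 binds the hexamer TGCCGC when its CG is methylated and, through the corepressor KAP1, brings in the methyltransferase SETDB1, which places H3K9me3. H3K9me2 is placed mainly by G9a and GLP over broad silent domains. H3K27me3 is placed by Polycomb repressive complex 2, often at CG-rich promoters of silent genes. Reads here were not assigned to parental copies.

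The Snrpn tile held 53 CG dinucleotides and 8 copies of TGCCGC, counted on both strands. Only 0.00286% of all tiles and 0.0676% of tiles at gene starts held as many copies of the hexamer, and no other tile of the interval held 4 or more. All 8 lay in the first intron, 284 to 972 bases into the transcript ENSMUST00000059305, and 7 of them on the minus strand, which is the strand of Snrpn. The stretch with 4 of them is shown because the H3K9me3 peak at Snrpn lies over it; capitals mark TGCCGC (chr7:67149234-67149502, NCBIM37, minus strand, 5′ to 3′).
Snrpn, first intron: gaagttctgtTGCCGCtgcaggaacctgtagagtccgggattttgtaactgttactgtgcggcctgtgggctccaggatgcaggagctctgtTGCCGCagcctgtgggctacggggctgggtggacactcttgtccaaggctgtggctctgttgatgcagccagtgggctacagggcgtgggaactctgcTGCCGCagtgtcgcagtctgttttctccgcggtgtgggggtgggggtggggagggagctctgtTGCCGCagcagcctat

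The 200 bases upstream of 3 other genes are shown because their start tiles carried the main H3K27me3 and H3K9me2 readings described here; capitals mark CG. The Ube3a stretch holds 22 CG, against 7 for Peg12 and 4 for Ndn, and lies at chr7:66483922-66484121 on the plus strand. The Peg12 stretch is chr7:69609397-69609596 on the minus strand and the Ndn stretch is chr7:69492963-69493162 on the plus strand, all in NCBIM37. A sequence match is a description and not a bound site.
Ube3a, upstream: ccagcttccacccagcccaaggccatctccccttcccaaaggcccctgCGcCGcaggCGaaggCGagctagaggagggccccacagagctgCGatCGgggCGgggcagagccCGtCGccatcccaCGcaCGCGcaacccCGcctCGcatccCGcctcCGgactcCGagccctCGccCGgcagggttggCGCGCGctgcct
Ndn, upstream: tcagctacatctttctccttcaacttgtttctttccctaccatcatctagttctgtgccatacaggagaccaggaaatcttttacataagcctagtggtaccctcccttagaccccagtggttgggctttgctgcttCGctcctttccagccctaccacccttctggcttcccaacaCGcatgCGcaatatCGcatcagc
Peg12, upstream: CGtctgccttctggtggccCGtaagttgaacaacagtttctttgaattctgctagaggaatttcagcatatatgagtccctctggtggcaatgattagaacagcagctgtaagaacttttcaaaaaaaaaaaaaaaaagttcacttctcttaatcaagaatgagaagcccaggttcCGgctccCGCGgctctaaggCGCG

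Values were deposited as log2 of observed over expected reads per tile, and whole reads could be recovered from them. The libraries held 14627174 to 26181489 reads, apart from the H3K9me3 DNMT1KO library of day 8, replicate 1, with 5669098, in which 12.7% of tiles were empty. In that library an empty tile had a log2 value of -2.62, against -4.35 to -4.40 in the other day 8 H3K9me3 libraries. Means of log2 values over tiles with few reads thus have unequal floors. Of the 1650 tiles of the interval, 68 held no read in any library. The deleted gene was checked in the 1 of its 24 tiles with the lowest ratio of DNMT1KO to control reads, chosen after its values were seen: it held 23 control and 9 DNMT1KO reads at day 4 and 49 and 1 at day 8, summed over the marks. The median ratio over the other tiles of Dnmt1 was 1.18. As the tile was picked by this ratio, its low reads are a description and no independent check of the labels. Ratios of reads within a pair are given relative to library totals with exact binomial 95% limits, which cover counting error only.

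H3K9me3 at the Snrpn tile was among the highest in the genome in control cells and was lower in DNMT1KO cells in every pair of libraries. At day 4, the tile held 86 reads in control cells and 74 in DNMT1KO cells, a fold of 0.677 relative to library totals (95% limits 0.49 to 0.935). At day 8 the counts were 132 and 12 reads in replicate 1, a fold of 0.301 (0.152 to 0.543). Replicate 2 had 82 and 19 reads, a fold of 0.231 (0.132 to 0.383). As RPM, reads scaled to the same library total, these came to 4.9, 7.04 and 4.23 in the control libraries and 3.32, 2.12 and 0.976 in the DNMT1KO libraries, so the genotypes did not overlap. The input held 15 reads, or 0.789 RPM. Every control library placed the tile at percentile 99.9 or higher among tiles with a read, and the DNMT1KO libraries placed it at percentiles 99.8, 96.3 and 74.4. The DNMT1KO library of day 8, replicate 2, was thus close to input.

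On the log2 scale the day 8 mean at the Snrpn tile was 2.48 ± 0.52 in control cells and 0.56 ± 0.79 in DNMT1KO cells (SD, n = 2 each). The difference was -1.92 ± 0.55 (SE), with an adjusted p of 0.773 in limma over 1256638 tiles, and therefore did not pass the threshold of 0.05. In that fit 0 tiles passed (0% of the table), 232 of the 1576 tested tiles of the interval had an unadjusted p under 0.05, and 221 of those 232 were lower in DNMT1KO cells. Among all tested tiles 6.24% reached that unadjusted level. Limma-voom on the recovered reads gave -2.09 and an adjusted p of 0.00082 for the Snrpn tile, in a fit where 0.0386% of tiles passed. Without the shallow library (DNMT1KO, replicate 1) the limma difference was -2.48 with an adjusted p of 0.0164, in a fit that called 6555 tiles, 20 of them in the interval (19 lower and 1 higher). Without DNMT1KO replicate 2 the fit called 76307 tiles, 182 of them in the interval (173 lower and 9 higher), and the Snrpn tile was not among them (-1.37). In both fits the lone DNMT1KO library is assumed to vary like the controls. An exact permutation test of 2 libraries against 2 cannot go below p = 0.333.

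In the day 4 control library, 319 tiles had at least as much H3K9me3 as the Snrpn tile. Their median day 8 difference was -0.23, and 27 of them (8.46%) were at least as far below zero as the Snrpn tile. Among all tested tiles it ranked 3204 from the lowest of 1256638.

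**Figure D1:**
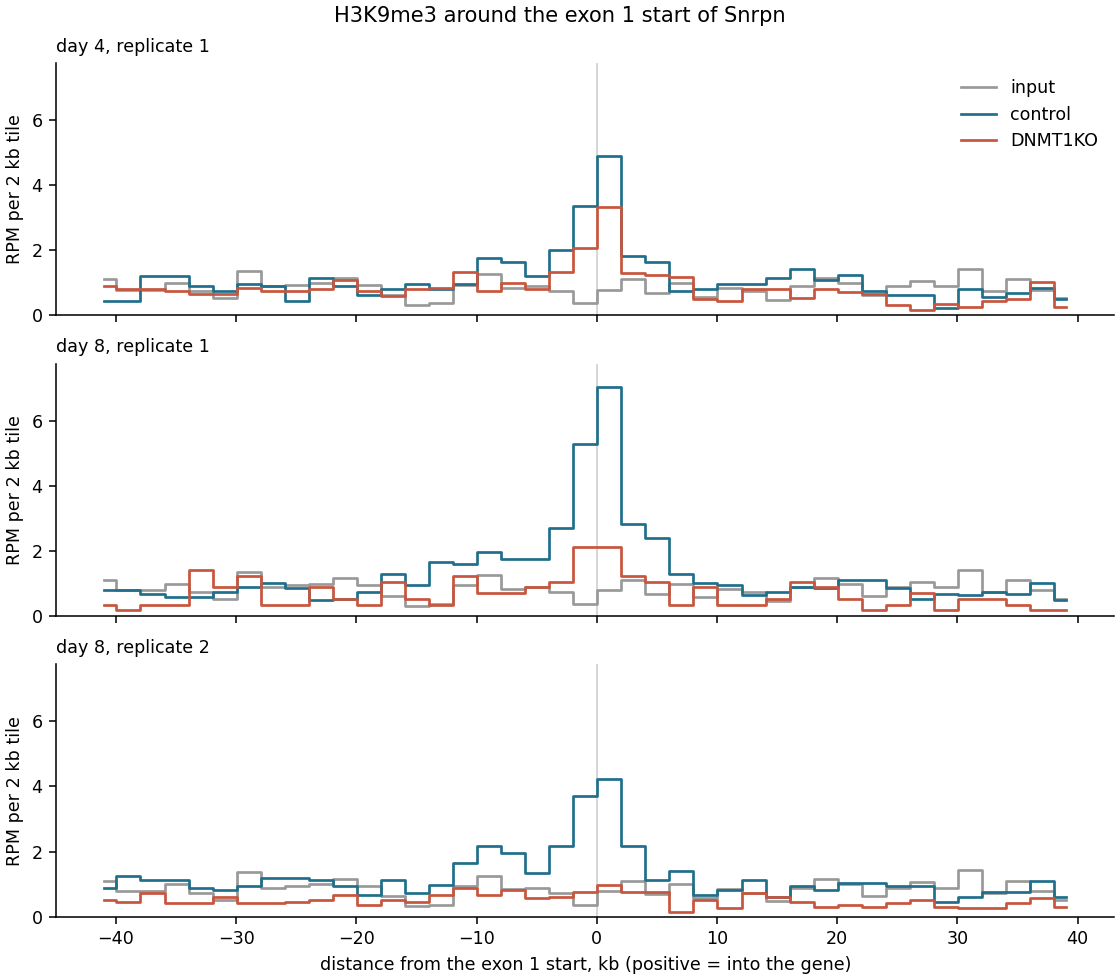
H3K9me3 RPM in each 2 kb tile (vertical axis) against distance from the exon 1 start of Snrpn in kb (horizontal axis, positive into the gene), for control, DNMT1KO and input libraries in 1 panel per pair. The control line peaks at the start in all 3 panels, and in the Snrpn tile the DNMT1KO line stands at 0.677 of the control at day 4 and at 0.301 and 0.231 of it at day 8.

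The H3K9me3 peak extended over 3 tiles in which control reads were at least 2-fold over input, from 67148001 to 67154000. Exon 1 of ENSMUST00000059305 (67149922 to 67150042, all 5′ untranslated) straddles the border between the first tile and the next, which begins at 67150001 and holds the transcript start. That next tile had 59 control and 46 DNMT1KO reads at day 4, 99 and 12 in replicate 1 at day 8, and 72 and 15 in replicate 2. Its limma difference was -1.79 (adjusted p = 0.773), and limma-voom gave an adjusted p of 0.00124. Over the whole peak the reads went from 180 to 150, from 282 to 30 and from 196 to 46, folds of 0.656, 0.352 and 0.233. As the peak was drawn on these same control reads, its folds are in part built in. Its edge is also loose, since the tile at 67146001 fell just under the cut (0.99 over input on the log2 scale). The longer transcript of Snrpn, ENSMUST00000098402, begins at 67285105, and its start tile had no such signal: control libraries held 11, 14 and 13 H3K9me3 reads against 20 in the input.

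The other marks were low at the Snrpn tile. H3K9me2 read counts in control and DNMT1KO cells were 2 and 1 at day 4, 3 and 6 in replicate 1 at day 8, and 1 and 7 in replicate 2, all under the 15 reads of the input. The day 8 difference was 1.77 ± 0.47 with an adjusted p of 0.846 in limma, in a fit where 0% of tiles passed and limma-voom called 0.000956%. Over the 3-tile peak H3K9me2 had 4, 8 and 4 reads in control cells and 12, 20 and 23 in DNMT1KO cells, so the genotypes did not overlap, but all stayed under the 36 reads of the input. H3K27me3 counts in the Snrpn tile were 10, 5 and 8 in control cells and 9, 5 and 5 in DNMT1KO cells, and the difference of -0.43 had an adjusted p of 0.806. Whether the H3K9me2 reading at these few reads reflects the mark was not tested. In the DNMT1KO library of day 8, replicate 2, H3K9me2 values correlated with the input across tiles with Pearson r = 0.704, against 0.508 in its control, and the median difference over all gene start tiles was 0.91 in that pair, against 0.23 in replicate 1 and 0.14 at day 4.

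Tiles at the annotated start of other imprinted genes known for a methylated promoter were read in the same way, to place the Snrpn tile. H3K9me3 reads in control and DNMT1KO cells were 112 and 92, 185 and 12, and 91 and 6 at Peg3, in the order day 4, day 8 replicate 1 and day 8 replicate 2. The day 8 differences were -3.08 at Peg3, -3.04 at Nap1l5, -2.97 at Nnat and -2.24 at Peg10, each with an adjusted p of 0.873 in limma over 23294 start tiles, where 0% passed. Limma-voom called 0.073% of start tiles. The start tiles of Mest (14, 11 and 9 control reads) and Mcts2 (7, 12 and 10) had no H3K9me3 over input in the control libraries. The Mest tile held only 17 CG and 0 copies of the hexamer, against 59 to 112 CG in the other comparison tiles. Whether it covers the methylated promoter of Mest was not tested, so its reads do not describe that promoter. The Snrpn tile thus held H3K9me3 in control cells at a level like that of Peg3, Nap1l5, Nnat and Peg10, and its day 8 difference was the smallest of these 5, though the differences between tiles were not tested.

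**Figure D2:**
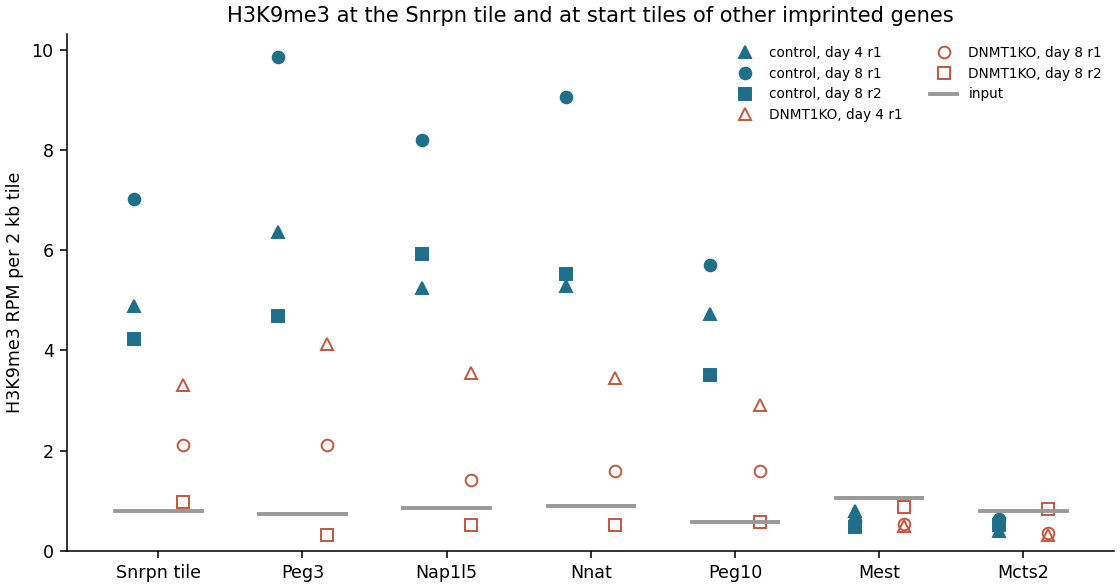
H3K9me3 RPM in the Snrpn tile and in start tiles of 6 other imprinted genes, 1 point per library (filled for control, open for DNMT1KO, shape for day and replicate) with a grey line for input. The control points of the Snrpn tile (4.23 to 7.04) lie above its DNMT1KO points (0.976 to 3.32), and Mest and Mcts2 lie near input.

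Across the 18 ChIP libraries the start tiles most like the Snrpn tile, by Pearson's r among 13364 start tiles with a mean of at least 10 reads, were those of Mrgprb8 (r = 0.945), Nespas (0.929), Angptl6 (0.927), 3110070M22Rik (0.924) and Ttll9 (0.918). Nespas, an antisense transcript of the imprinted Gnas cluster, had 5 copies of the hexamer, and its H3K9me3 reads were 92 and 96 at day 4, 192 and 14 in replicate 1 and 92 and 15 in replicate 2 at day 8. Mrgprb8 and 3110070M22Rik had 0 copies, Ttll9 1 and Angptl6 2. At day 8 Mrgprb8 had 86 and 12 H3K9me3 reads in replicate 1 and 73 and 39 in replicate 2. In the same order 3110070M22Rik had 565 and 156, and 349 and 311. Angptl6 had 46 and 9, and 39 and 46, and Ttll9 had 59 and 13, and 40 and 42. In replicate 2 Angptl6 and Ttll9 were thus not lower in DNMT1KO cells. Of the other imprinted start tiles, Peg3 ranked 24 of 13364 (r = 0.868), Nnat 34, Peg10 49, Nap1l5 143 (r = 0.746) and Mest 11067 (r = -0.389). The 18 libraries span 3 marks, so r also follows which mark is high at a tile.

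The region of Snrpn, which encodes a spliceosome protein, had less H3K9me3 in DNMT1KO cells than in control cells at day 8. This held outside the tiles of the peak too, with a difference of -0.79 on the mean of log2 values. The whole region held 1414 and 1519 reads at day 4, 1711 and 327 in replicate 1 and 1721 and 868 in replicate 2, with folds of 0.846, 0.633 and 0.502. Its mean log2 value was -0.031 ± 0.066 in control and -0.858 ± 0.16 in DNMT1KO cells at day 8 (SD, n = 2). The difference of -0.83 ± 0.18 had an adjusted p of 0.544 in limma over 23449 gene regions, of which 0% passed, and an adjusted p of 8.72e-08 in limma-voom, which called 7.83% of regions. Snrpn was the only one of the 5 members that limma-voom called there. H3K9me3 over the region of Mkrn3, which encodes a ring-finger protein, differed by -0.71 ± 0.23 (adjusted p = 0.544), from 52 and 50, 46 and 10, and 58 and 39 reads. The Mkrn3 start tile differed by only -0.05 at day 8 with overlap, from 20 and 6 and from 20 and 19 reads (folds of 0.993 and 0.945). Over the regions of Ube3a, Ndn and Magel2 the limma differences were -0.03, 0.20 and 0.05, with adjusted p-values of 0.978, 0.898 and 0.972. On summed reads the Ube3a region had folds of 0.759 and 0.948 in the day 8 pairs. Of the 12 protein-coding and lincRNA genes of the interval 7 had an unadjusted p under 0.05, all lower, against 8.88% of all regions. That count was 1 without DNMT1KO replicate 1, 2 without control replicate 2, and 4 without either of the other libraries or with GC correction, which took the median over the 12 genes from -0.54 to -0.19.

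**Figure D3:**
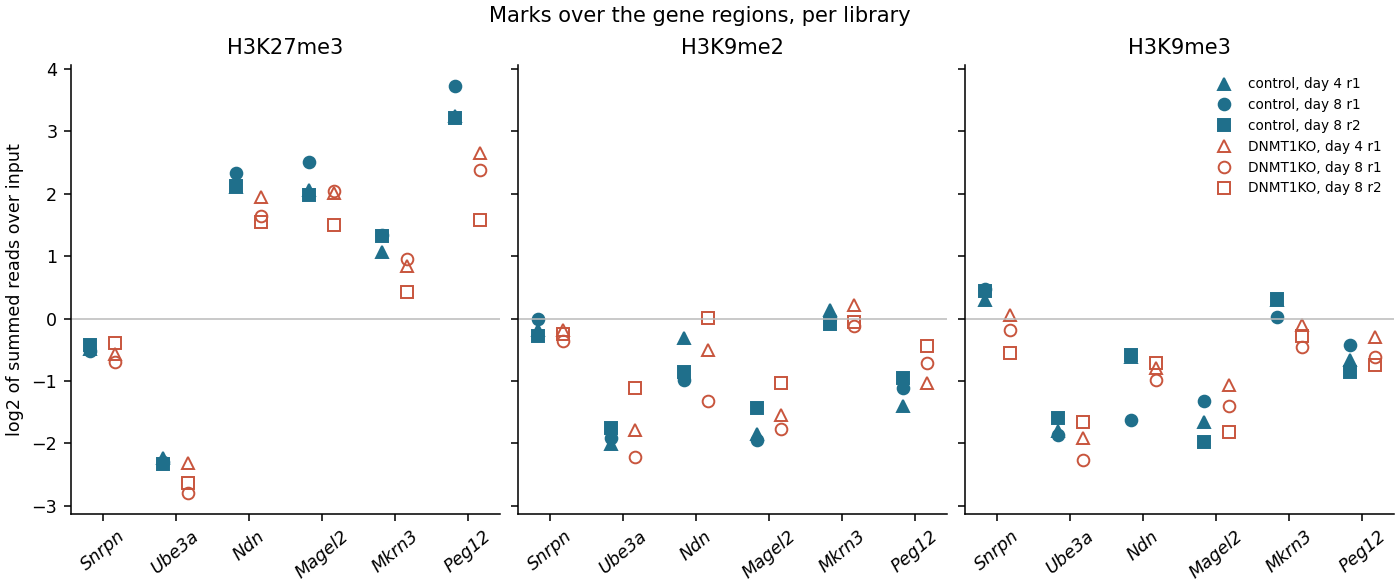
Log2 of summed reads over input for each library (vertical axis) at the regions of 5 members and Peg12 (horizontal axis), in 1 panel per mark, with filled points for control and open points for DNMT1KO. H3K27me3 lies above input at Ndn, Magel2, Mkrn3 and Peg12, and the control points of Snrpn for H3K9me3 lie from 0.29 to 0.47.

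The interval as a whole had less H3K9me3 in DNMT1KO cells, relative to library totals, in every pair. Reads went from 22447 to 24868 at day 4, from 23170 to 5198 in replicate 1 and from 25927 to 16969 in replicate 2, folds of 0.872 (95% limits 0.857 to 0.888), 0.742 (0.72 to 0.765) and 0.651 (0.639 to 0.664). The mean over tiles was -0.791 ± 0.118 in control and -1.254 ± 0.048 in DNMT1KO cells at day 8 (SD, n = 2), and the difference of -0.46 ± 0.10 was the lowest of 810 windows of the interval's length. That rank rests in part on 1 library, since without DNMT1KO replicate 2 the interval was 32 from the lowest. It had an adjusted p of 0.123 in limma, in a fit where 0% of windows passed. Limma-voom gave -0.54 and called it together with 51.5% of windows, so the call by itself does not set the interval apart. Without DNMT1KO replicate 1 the difference was -0.50 and without replicate 2 it was -0.43, and both passed, as did 186 and 352 of the 810 windows. Without the peak at Snrpn the day 8 pairs still differed by folds of 0.747 and 0.654. A correction for GC content left -0.29 with an adjusted p of 0.3, and the interval has 38.4% GC against 41.8% over all tiles with a read. The value stayed below zero in all 13 alternatives, from -0.55 to -0.29. The part of base composition in the difference was not tested beyond that.

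Within the interval the difference was widespread. On summed reads, all 33 windows of 100 kb were lower in both day 8 pairs and 32 of 33 at day 4. On the mean of log2 values used in limma, the window at 66.9 Mb was not lower at day 8 (0.10, adjusted p = 0.852). On summed reads that window differed by -0.57 and -0.79 in the day 8 pairs. The part of the unequal floors of empty tiles in this was not tested. The lowest was the window at 67.1 Mb, which holds the Snrpn tile, at -0.84 and -1.23 in the day 8 pairs on summed reads. In limma it differed by -1.01 ± 0.13 with an adjusted p of 0.0746 and ranked 3 from the lowest of 25614 windows. In that fit 0 of the 33 windows passed (0% of all), 25 had an unadjusted p under 0.05, as did 24.8% of all windows, and limma-voom called 30 of 33 against 28.6% of all windows. Without the DNMT1KO library of replicate 1 the limma count was 26, all lower, and without that of replicate 2 it was 27, of which 25 were lower and 2 higher, beside 5230 and 8862 of all 25614 windows. By a criterion of at least 2-fold with no overlap between the genotypes, 336 of 1576 tiles were lower (21.3%), against 6.66% of all tiles, and 21 were higher, against 3.94%. The 3 largest of those lower tiles with 20 or more reads lay in introns of Snrpn at 67236001 and 67142001 and between genes at 67976001. Limma-voom called the first 2, with adjusted p-values of 0.0295 and 0.0474. Day 8 control reads there were 13 and 24, 24 and 27, and 21 and 15, close to the 19, 19 and 22 of the input. At day 4 control and DNMT1KO reads were 10 and 14, 13 and 26, and 18 and 15, so the first 2 were not lower then. The tiles at 67236001 and 67142001 and the 3 tiles of the peak were the 5 tiles of the interval called by limma-voom, all within Snrpn.

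**Figure D4:**
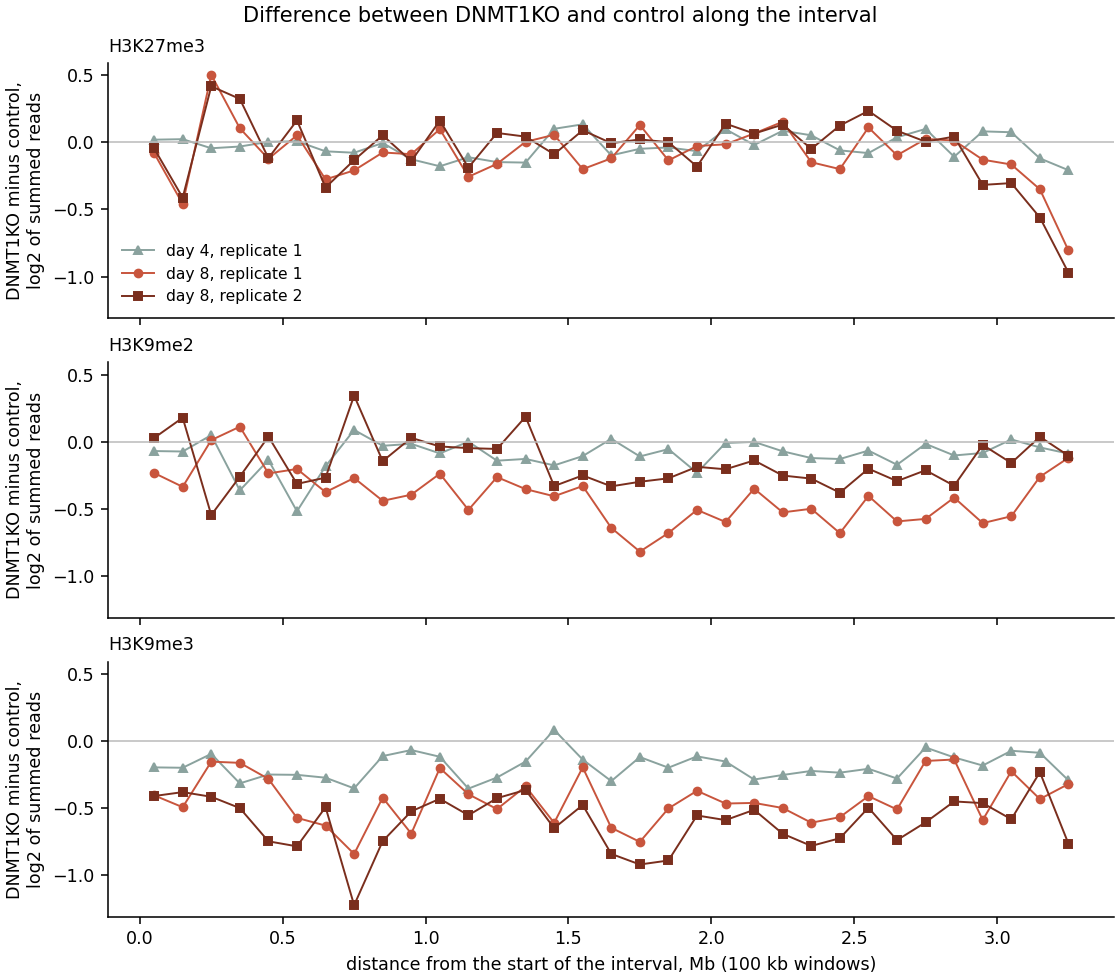
Difference between DNMT1KO and control in log2 of summed reads for each 100 kb window (vertical axis) against distance from the start of the interval in Mb, 1 line per pair and 1 panel per mark. The H3K9me3 lines lie below 0 in all 33 windows at day 8, with the lowest values, -0.84 and -1.23, at the window that holds the Snrpn tile.

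SnoRNA genes fill the region between Ube3a and Snrpn. There were 137 copies of SNORD115 (66597596 to 66874465) and 27 of SNORD116 (66928831 to 67068008), families of short nuclear RNAs encoded in introns of long host transcripts. The 158 tiles with a snoRNA gene held 1867 and 2008 H3K9me3 reads at day 4, 2090 and 542 in replicate 1 and 1771 and 1257 in replicate 2, with folds of 0.847, 0.858 and 0.706. On the mean of log2 values per tile the replicate 1 pair went the other way (0.25, against -0.30 at day 4 and -0.41 in replicate 2), and the day 8 means differed by -0.08 with overlap between the genotypes. The part of the unequal floors of empty tiles in that pair was not tested. The input held 585 reads in the tiles with a snoRNA gene. Reads that map to several copies were discarded upstream, so these counts come from the part of the repeats that is unique. The tiles with the most H3K9me3 over input, at 66754001 and 66760001 between SNORD115 copies, had only 2 input reads each.

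Ube3a encodes a ubiquitin ligase, and its region was poor in all 3 marks. Its control libraries lay 1.52 to 1.91 below input for H3K9me3 on the log2 scale and 2.22 to 2.35 below for H3K27me3. The start tile, with 129 CG, had 0 H3K9me2 reads in all 3 control libraries and 3, 5 and 9 in the DNMT1KO libraries, against 15 in the input. The genotypes did not overlap, the adjusted p was 0.752 in limma over 23292 start tiles, where 0% passed, and no fold is given since the control is at 0. Without DNMT1KO replicate 1 the tile passed (adjusted p = 0.0121), in a fit that called 4190 of all start tiles. The region as a whole had 144 and 230, 232 and 161, and 190 and 415 H3K9me2 reads, so that the day 8 pairs went in opposite directions (limma difference 0.22, adjusted p = 0.851, 0% of regions passed). H3K27me3 in the region differed by -0.45 in limma (adjusted p = 0.212).

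H3K27me3 was above input at the regions of Ndn, Magel2, Mkrn3 and Peg12. In the control libraries the Ndn region was 2.14 to 2.39 above input on the log2 scale, Magel2 1.85 to 2.35, Mkrn3 1.08 to 1.36 and Peg12 3.13 to 3.63, while Ube3a and Snrpn were below input. Peg12 is a single-exon gene next to Mkrn3 (69606757 to 69609396, minus strand) and not among the 5 members. A run of 130 kb around it, from 69510001 to 69640000, was at least 2-fold over input in 10 kb bins of summed control reads. Ndn ends at 69494814 and so lies outside this run. The run held 179, 222 and 211 RPM in control cells and 159, 151 and 121 in DNMT1KO cells, against 51.7 in the input. As it was drawn on these same control libraries, lower values in DNMT1KO cells are in part built in.

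The largest H3K27me3 difference of the group was at Peg12. Its start tile held 227 and 115 reads at day 4, 267 and 87 in replicate 1 and 176 and 44 in replicate 2 at day 8, folds of 0.6, 0.336 and 0.213. The genotypes did not overlap. The limma difference was -1.90 (adjusted p = 0.183 over 23292 start tiles, 0% passed), and limma-voom gave -1.85 with an adjusted p of 0.00759 in a fit that called 7.45% of start tiles. The region differed by -1.43 ± 0.30 (adjusted p = 0.165) and ranked 145 from the lowest of 23448, with 0% passing.

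Ndn encodes the growth-suppressing protein necdin, and its start tile held 102 and 55 H3K27me3 reads at day 4, 103 and 42 in replicate 1 and 79 and 59 in replicate 2. The difference over the region was -0.67 ± 0.16 (adjusted p = 0.17). Magel2, a MAGE family gene involved in protein recycling from endosomes, had start tile counts of 90 and 76, 107 and 85, and 88 and 72, and its region differed by -0.46 ± 0.24 (adjusted p = 0.331). Mkrn3 had 26 and 22, 31 and 15, and 34 and 19 reads, and its region differed by -0.71 ± 0.21 (adjusted p = 0.191). Snrpn differed by -0.11 (adjusted p = 0.745). Of the 12 genes of the interval 6 had a region with an unadjusted p under 0.05, all lower, against 20.9% of all regions, and 2 to 5 did when 1 library was left out. The median difference was -0.45 over the 12 regions and -0.12 over all regions, and over all start tiles it was -0.37 and -0.46 in the day 8 pairs, so gene starts in general were lower too. By the 2-fold criterion without overlap, 69 of 1563 tiles were lower (4.41%), against 4.02% of all tiles, and 57 higher (3.65%), against 3.61%, so the interval was near the background. No tile passed in limma (0%), and 121 of 1563 had an unadjusted p under 0.05 (7.74%), against 7.66% of all tiles, which is again the background. Limma-voom called 9 tiles (0.431% of all tiles passed), 8 of them lower and 7 of those 8 between 69586001 and 69638000 around Peg12. The lower tiles with the largest differences lay at 69636001 (-2.06), at the Peg12 start and at 67760001 (-1.72), and the higher ones at 68380001 (2.70), 68638001 (1.86) and in an intron of A230006K03Rik at 68252001 (1.69), with 2 and 7, 3 and 18, and 2 and 16 reads in the first of the higher ones. Of the 33 windows of 100 kb 0 passed in limma (0% of all), and 5 had an unadjusted p under 0.05 (15.2%), against 11.3% of all windows. Without DNMT1KO replicate 1 the count past the threshold was 3 and without replicate 2 it was 1, beside 3864 and 112 of all windows.

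**Figure D5:**
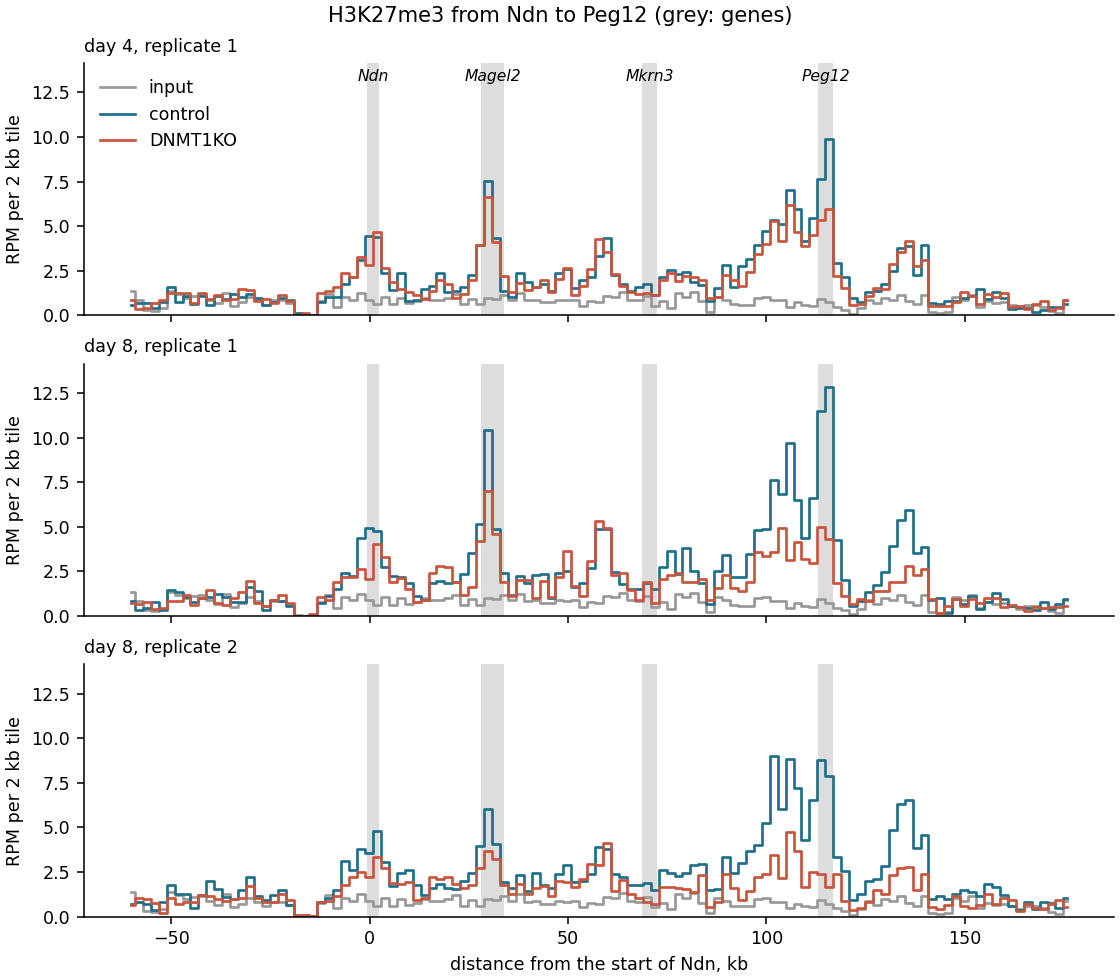
H3K27me3 RPM per 2 kb tile (vertical axis) against distance from the start of Ndn in kb, for control, DNMT1KO and input in 1 panel per pair, with genes shaded grey. In control cells the signal is highest around Peg12, where the start tile held 0.6 of the control level at day 4 and 0.336 and 0.213 of it at day 8.

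H3K9me2 over the interval differed by -0.24 (adjusted p = 0.462), with 25316 and 15945 reads in replicate 1 and 16778 and 21017 in replicate 2 (folds of 0.737 and 0.894). It ranked 15 from the lowest of 810 windows in limma and was the lowest in limma-voom (-0.34). Without DNMT1KO replicate 1 the difference was -0.15. The 100 kb windows at 68.1 and 68.0 Mb ranked 6 and 14 from the lowest of 25614, as they did for H3K9me3. By the 2-fold criterion 111 of 1567 tiles were lower (7.08%), against 1.71% of all tiles, and 35 higher, against 4.78%. In limma 0% of tiles and 0% of 100 kb windows passed, and an unadjusted p under 0.05 was reached by 133 tiles of the interval (8.49%), against 5.68% of all tiles, and by 9 windows (27.3%), against 7.58% of all windows. Limma-voom called 0 tiles of the interval, and 158 of 1567 had an unadjusted p under 0.05 there, beside 84019 of all 1254661 tiles. Of the higher tiles the start tile of Ndn was among the 3 with the largest difference (1.89, adjusted p = 0.846 over tiles), with 6 and 10 reads at day 4, 4 and 6 in replicate 1 and 2 and 22 in replicate 2, so it rests mostly on 1 library. Without DNMT1KO replicate 1 the Ndn start tile and region passed (adjusted p of 0.0227 and 0.029), in fits that called 4190 of 23292 start tiles and 6512 of 23456 regions. The other 2 lay between genes at 67766001 (2.39) and 69660001 (1.96), and the lower ones between genes at 68190001 (-1.95), 68156001 (-1.90) and 69334001 (-1.73).

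The day 4 and day 8 differences were set against each other in an interaction term over the 6 libraries of each mark. At the Snrpn tile H3K9me3 differed by a further -1.36 ± 0.96 at day 8 (adjusted p = 0.9998), and H3K9me2 by 3.22 (adjusted p = 0.9997). Limma called 0 tiles for any mark in this comparison, although an unadjusted p under 0.05 was reached by 63916 tiles in the H3K27me3 fit, by 50969 in that of H3K9me2 and by 34702 in that of H3K9me3. Day 4 rests on 1 library per genotype, so its values stand without a replicate.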

How the data were processed

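ChIP-seq libraries for 3 marks and 1 input were measured as reads in 2 kb tiles. The deposited values are log2 of observed over expected reads per tile, made by the authors with the input not subtracted. The authors trimmed reads (Trim Galore), aligned them to NCBIM37 with Bowtie2 2.2.9 and discarded those of low mapping quality, so repeated copies keep few reads. Their methods speak of 1 kb tiles, while the table holds 2 kb tiles. Whole reads were recovered from the steps between values (100% whole within 0.02 read), where an empty tile stands for 0.9 read.

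Day 8 was tested with limma 3.58.1 in R 4.3.3 on the log2 values, 2 control against 2 DNMT1KO libraries per mark across all tiles, gene start tiles, gene regions or windows, two-sided, with Benjamini-Hochberg adjusted p under 0.05. Limma-voom on the recovered reads and other settings were alternatives. The fits were run on simulated day 8 H3K9me3 reads with known changes. At start tiles limma on log2 values recovered 0 of 100 2-fold and 0 of 100 4-fold changes, and limma-voom 26 and 80. Over 100 kb windows limma recovered 85 and 100, with 32 false calls, and limma-voom 87 and 100, with 3. A start tile that failed the limma threshold was therefore not shown to be unchanged. Gene starts and regions follow the GENCODE annotation of NCBIM37 (release vM1). Tables were made with Python 3.11.15.

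The named genes were the members, other protein-coding and lincRNA genes of the interval, up to 3 tiles per mark and direction by the 2-fold criterion, the 5 start tiles most like the Snrpn tile, and imprinted start tiles for comparison. The members and these lists were chosen with earlier results of these data known. The depth is 5669098 to 26181489 reads per library, with a median of 3 to 17 reads per tile, which limits what single tiles can show. Whether read duplicates were removed is not given in the sources used here.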

Additional observations from a re-analysis of the deposited data

Results flagged for a closer look

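In 3 cases the day 4 pair and both day 8 pairs lay on opposite sides of zero, with 1 library per genotype at day 4. H3K9me2 at the Snrpn tile differed by -1.45 at day 4 and by 1.23 and 2.32 in the day 8 pairs on the log2 scale, from at most 7 reads per library. H3K27me3 over the Magel2 region differed by 0.06 at day 4 and by -0.49 and -0.43 at day 8. H3K9me2 over the Mkrn3 region differed by 0.07 at day 4 and by -0.14 and -0.03 at day 8. The interaction of genotype and day in limma had adjusted p-values of 0.9997, 0.9996 and 0.99998 in these 3 cases.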

How the results depend on the processing

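Same-numbered libraries deviated together with r of 0.073, 0.058 and 0.039 over tiles for H3K27me3, H3K9me2 and H3K9me3, and the numbers were taken as shared numbers only. Single tiles hold few reads, so these r cannot show whether the libraries pair over larger windows. At the interval mean the replicate block took the SE from 0.101 to 0.047 for H3K27me3, from 0.098 to 0.101 for H3K9me2 and from 0.099 to 0.167 for H3K9me3. With the replicate block, 6 of 33 windows of 100 kb passed for H3K27me3 and 18 for H3K9me3, against 0 without it, beside 4955 of 25612 and 3443 of 25614 over the genome. With GC correction as well the counts were 8 (5058 over the genome) and 0 (0), and the H3K27me3 interval mean was -0.125 with block and GC correction (adjusted p = 0.0143). For H3K9me3 the interval mean passed with a trend (-0.464), limma-voom (-0.545), summed reads (-0.524) and tiles with a read (-0.521), and when 1 DNMT1KO library was left out (-0.497 and -0.430), while leaving out any 1 library gave -0.547 to -0.380. The counts of H3K9me3 windows past the threshold were 18 with a trend, 30 with limma-voom, 24 on summed reads and 9 on tiles with a read (4134, 7337, 4453 and 350 of all 25614), and 0 to 27 when leaving out 1 library. The H3K9me3 tile counts were 5 with limma-voom and 0 to 182 when leaving out 1 library. For H3K27me3 tiles, 1 of 1563 passed with a trend and 9 with limma-voom, beside 3067 and 5408 of all 1255417 tiles. H3K27me3 windows went from 0 to 3 and H3K9me2 windows from 0 to 1 when leaving out 1 library. The Snrpn tile passed with limma-voom (-2.09), and leaving out 1 library gave -2.48 to -1.37. At a 4-fold criterion 6, 6 and 8 tiles were left for H3K27me3, H3K9me2 and H3K9me3. The H3K27me3 shares, 0.128% higher and 0.256% lower, were below those of all tiles (0.152% and 0.329%). For H3K9me2, 0.319% were higher and 0.0638% lower, against 0.629% and 0.0558%, and for H3K9me3 0.508% were lower, against 0.18%. Among members, 1 H3K9me3 region passed with limma-voom, and 1 region and 2 start tiles passed for H3K9me2 without DNMT1KO replicate 1. The day 4 interval value for H3K9me2 was -0.18 after centring. Minus input, the mean levels of the interval over the 3 control libraries were -0.22, -0.13 and 0.13 for H3K27me3, H3K9me2 and H3K9me3. The cause of these shifts was not tested. At a mean of at least 5 reads the Ube3a start tile dropped out for all marks and the Snrpn tile for H3K9me2, so they have no value there.

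Directions turned as follows, and of these values only the 1.24 of the H3K9me2 Ndn region, without DNMT1KO replicate 1, passed the threshold (adjusted p = 0.029). Leaving out 1 library moved the H3K27me3 interval mean between -0.165 and 0.0456, the H3K27me3 values of Snrpn between -0.266 and 0.0427 (region) and -0.564 and 1.00 (start tile), and the H3K9me2 start tile of Snrpn between -1.06 and 0.347 and of Mkrn3 between -0.929 and 0.0145. For H3K9me2 regions the ranges were -0.201 to 0.140 (Snrpn), -0.446 to 0.883 (Ube3a), -0.0938 to 1.24 (Ndn) and -0.0246 to 0.838 (Magel2). H3K9me2 of Snrpn was 0.0756 with GC correction and 0.0121 with all 6 libraries, and Magel2 was -0.0133 with GC correction. For H3K9me3, Ube3a was 0.335 with GC correction and 0.111 centred, Magel2 was -0.0415 with limma-voom and -0.0316 over the gene body, and the start tiles were 0.125 for Magel2 with all 6 libraries and 0.0945 for Mkrn3 centred. Leaving out 1 library gave -0.615 to 0.164 (Ube3a), -0.985 to 0.382 (Magel2) and -0.104 to 0.0124 (Mkrn3) for H3K9me3 start tiles. For H3K9me3 regions it gave -0.221 to 0.163 (Ube3a), -0.349 to 0.759 (Ndn) and -0.303 to 0.396 (Magel2).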
